A study of Mus musculus with 2 samples.

Results

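Cytokine receptor chains decide which survival and differentiation signals a T cell can receive, and 7 of them were followed here in single antigen-specific CD4 T cells: Il7r, Il2ra, Il2rb, Il2rg, Il6ra, Il6st and Il21r. They were taken by name, as the rows of the deposited expression table that map to these mouse symbols, and make up 7 of the 12432 genes in the table. The cells recognise the 2W1S peptide. They were purified from C57BL/6 mice, out of the spleen and the peripheral lymph nodes, after colonization with a Candida albicans that carries the peptide (CA-2W1S), and were captured singly on a Fluidigm C1 device with SMART-Seq v4 chemistry. There is 1 group only, with 2 samples, a March and an April capture, so the design holds no untreated or unrelated control cells. Column names split the March capture into runs Mar1 (25 cells) and Mar17 (57 cells) and the April capture into runs Apr13 and Apr21 (48 cells each), 178 cells in all. The labels do not state how many mice were pooled, the age of the animals or whether the runs came from separate mice, so differences between runs may be technical.

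The IL-7 receptor pairs an alpha chain, Il7r, with the common gamma chain Il2rg, and is best known for keeping resting naive and memory T cells alive. Il2rg also serves the receptors for IL-2, IL-15 and IL-21. Il2rb is the signalling partner of Il2rg in the IL-2 and IL-15 receptors, and Il2ra raises affinity for IL-2 after activation and in regulatory T cells. IL-6 binds Il6ra and signals through Il6st (gp130), which is also a chain of the IL-27 receptor, and Il21r binds IL-21, a product of follicular helper cells. Signals from these receptors run through the Janus kinases and STAT factors.

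The values are log2(value + 1) of a measure that behaves per transcript length, and "linear value" below means the value before that step. Over 3700 genes the lowest value above 0 fell with transcript length (Spearman rho -0.59, across genes). A cell is called positive for a chain when its linear value is 1 or more. Cells carried 2927 to 6990 detected genes. Run medians of detected genes were 4859 in Mar1, 5491 in Mar17, 4973 in Apr13 and 4922 in Apr21 (rounded from 4921.5). In 3 cells, all in Mar1, mitochondrial genes held over 50% of the linear signal. Cd3d, Cd3g, Trbc2 and Lck were positive in 178 of 178 cells and Cd4 in 126. Of 8 B cell markers listed for this work, 4 are in the table and the others are not analysed here. Ebf1, a B-lineage factor, was positive in 88.8% of cells but reached a linear value of 10 in 2.81%, so the cut of 1 also admits low values of a gene that T cells are not known to use. The cut of 10 does not remove all such signal: Ighm, the IgM heavy chain, reached it in 25.8% of cells, Cst3, abundant in myeloid cells, in 24.2% and the CD8 chain gene Cd8b1 in 10.7%. Shares at both cuts are given below, and the part of RNA from other cells in them was not tested. Intervals are exact 95% binomial intervals and cover counting error only.

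All 7 chains are on mm10. Il7r (ENSMUSG00000003882) lies at chr15:9505788-9530176 on the minus strand, Il2rg (ENSMUSG00000031304) at chrX:101264378-101268255 on the minus strand, Il2ra at chr2:11642807-11693193 on the plus strand and Il2rb at chr15:78479256-78495271 on the minus strand. Il6ra lies at chr3:89864059-89913196 on the minus strand, Il6st at chr13:112464070-112510086 on the plus strand and Il21r at chr7:125603429-125633570 on the plus strand. In the GENCODE vM21 annotation Il2rg shares 728 exonic bases with the protein-coding model Gm20489 on the same strand, and Il6ra shares 242 with the antisense model Gm42809. Neither model is analysed here, and their reads cannot be told apart from those of Il2rg and Il6ra, so both levels carry that uncertainty.

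Sequence upstream of the RefSeq gene model is shown for Il2rg and Il7r because these are the most abundant chains and together form the IL-7 receptor. Il2rg was found in every cell and Il7r at high level in a minority. RefSeq promoter entries (GRCm38.p6) matched 6 of the 7 chains. Capitals mark GGAAG or its reverse complement CTTCC, the core bound by ETS factors, and CACCC or its reverse complement GGGTG, the core bound by KLF factors. Both run 5′ to 3′ on the gene's strand.
Il2rg, chrX:101268256-101268505, minus strand: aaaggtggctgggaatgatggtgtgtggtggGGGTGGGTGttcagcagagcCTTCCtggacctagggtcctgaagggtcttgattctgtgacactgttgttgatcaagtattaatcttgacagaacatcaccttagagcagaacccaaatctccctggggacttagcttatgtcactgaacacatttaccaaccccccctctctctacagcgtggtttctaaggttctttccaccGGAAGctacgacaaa
Il7r, chr15:9529942-9530126, minus strand: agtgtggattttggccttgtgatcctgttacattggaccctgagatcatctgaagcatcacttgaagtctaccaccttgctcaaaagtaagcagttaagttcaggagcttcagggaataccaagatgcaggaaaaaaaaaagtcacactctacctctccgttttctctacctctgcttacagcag
In the 250 bases before its start Il2rg held 2 matches of the ETS core and 2 of the KLF core, the latter overlapping each other by a base. The same window of Il7r held 1 match of the ETS core, in the 65 bases next to the start that are not shown because they lie inside the RefSeq gene model, and 0 of the KLF core. The whole Il7r stretch lies inside the GENCODE gene span given above, which reaches 9530176, so it is upstream of the RefSeq gene model only. Its farther end lies in the first exon of a GENCODE transcript without a coding sequence. Of 32851 RefSeq windows of this length, 64.1% held the ETS core and 52% the KLF core on either strand. These matches describe letters and were not tested for binding.

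Il2rg was by far the most abundant chain. Its mean log2 value was 7.11 in Mar1, 7.19 in Mar17, 8.86 in Apr13 and 8.07 in Apr21. It was above the cut in 178 of 178 cells, which puts the share at no less than 97.9%, and its lowest value in any cell was 1.30 on the log2 scale. The cells still spread widely: 143 cells reached a linear value of 10 and 115 reached 100, while 35 cells stayed under 10. Both April runs lay above both March runs in mean, and with 2 captures this difference has no test. By mean linear value Il2rg stood at the 99.3rd percentile of all genes in the table.

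Il7r was the next most abundant and the most clearly divided between low and high cells. Its mean log2 value was 2.67 in Mar1, 3.41 in Mar17, 3.03 in Apr13 and 3.49 in Apr21, an average of 3.15 ± 0.38 (SD over 4 runs). Positive cells made up 44% of Mar1, 54.4% of Mar17, 41.7% of Apr13 and 52.1% of Apr21. Those shares overlap in their intervals, the widest being 24.4% to 65.1% in Mar1. Over all cells 48.9% were positive (95% interval 41.3% to 56.5%). The distribution had few cells in the middle: 113 cells were under a linear value of 3, 6 cells lay from 3 to under 10, and 59 cells reached 10, of which 45 reached 100. Low values were common, since 92.1% of cells had some Il7r signal, against 33.1% at a linear value of 10 or more. The cut of 1 therefore runs through the low group: 28 of 82 March cells and 18 of 96 April cells lay within 2-fold of it.

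**Figure D1:**
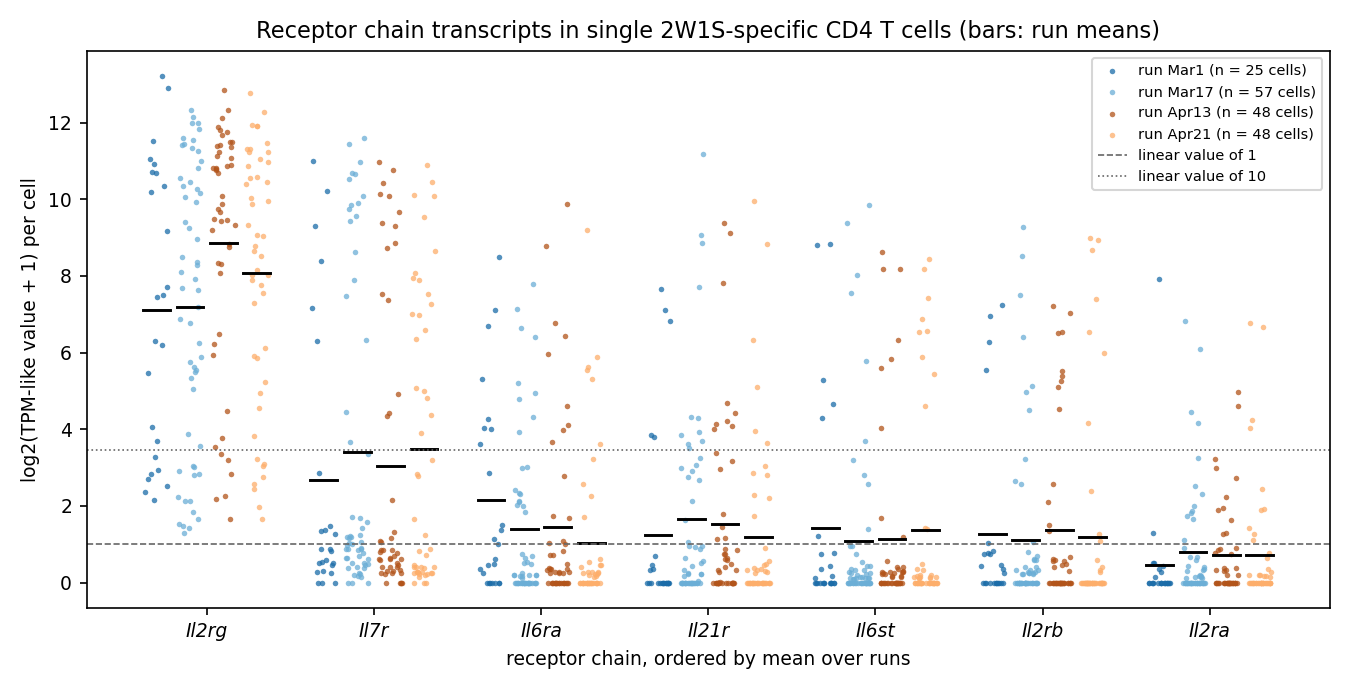
Each point is 1 cell, coloured by run. The vertical axis is log2(TPM-like value + 1), the chains are ordered by mean over runs, black bars are run means and the horizontal lines mark linear values of 1 and 10. Il2rg lies above 1 in every cell, Il7r separates into a low group and a group reaching 11.61, and the other chains are near 0 in most cells with a few high cells in each run.

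The IL-6 chains were found in smaller groups of cells. Il6ra had mean log2 values of 2.14, 1.4, 1.45 and 1.04 in Mar1, Mar17, Apr13 and Apr21, and was positive in 48%, 33.3%, 29.2% and 20.8% of their cells. March cells were positive more often (37.8%, 27.3% to 49.2%) than April cells (25%, 16.7% to 34.9%), with intervals that overlap. Il6st, the shared signalling chain, had means of 1.43, 1.08, 1.13 and 1.36 in the same order and was positive in 20.2% of all cells (14.6% to 26.9%). When present it was often high, with 27 of its 36 positive cells at a linear value of 10 or more.

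Il21r was positive in 29.8% of cells (23.2% to 37.1%), with run means of 1.24, 1.65, 1.54 and 1.19. Its highest single cell reached 11.19, in Mar17. Il2rb, the signalling partner for IL-2 and IL-15, was positive in 21.9% of cells (16.1% to 28.7%), with run means between 1.10 and 1.36, and 15.2% of cells reached a linear value of 10. Il2ra was the lowest chain: its run means were 0.46, 0.80, 0.73 and 0.73, and 20.2% of cells were positive (14.6% to 26.9%). Only 11 cells, or 6.18%, reached a linear value of 10, and a further 9 cells lay from 3 to under 10, out of 36 positive cells.

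On the per-length log2 scale the order of mean levels over the 4 runs was Il2rg 7.81, Il7r 3.15, Il6ra 1.51, Il21r 1.41, Il6st 1.25, Il2rb 1.23 and Il2ra 0.68. The ranges over runs of Il2rg, Il7r and Il2ra overlapped with no other chain of the list. Il6ra, Il21r, Il6st and Il2rb were neighbours whose ranges over runs overlapped (1.04 to 2.14 for Il6ra and 1.10 to 1.36 for Il2rb), so their order is within the spread between runs. On the linear scale this middle group changed order, with mean levels of 37.7 for Il21r, 31.7 for Il6st, 23.5 for Il6ra and 22.5 for Il2rb, each carried by few high cells.

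**Figure D2:**
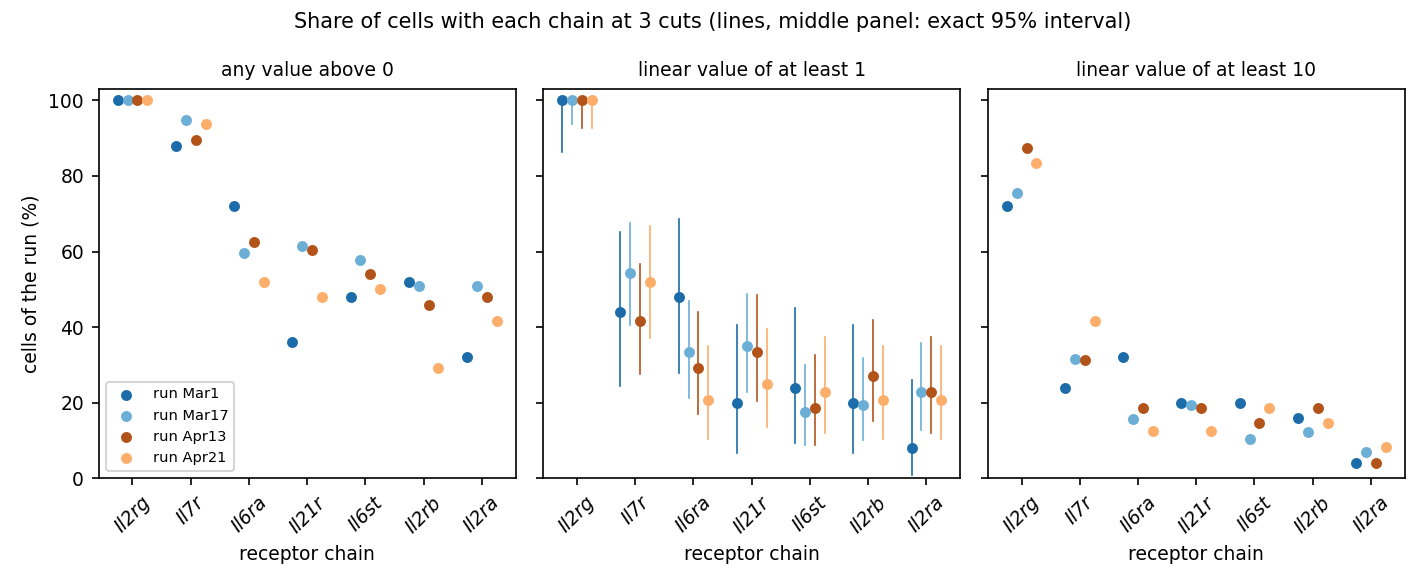
Share of cells (%) in which each chain lies above 0 or reaches linear values of 1 or 10, with a point for each run; lines in the middle panel are exact 95% binomial intervals. The share of Il7r moves from 92.1% of all cells at any value to 48.9% and 33.1% at the higher cuts, and Il2rg stays at 72% or more in every run.

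Other receptor chains give the setting. Of a list of 29 chains, 21 are in the table. Ifngr1, a chain of the interferon gamma receptor, was positive in 68.5% of cells, Ifnar1 of the type I interferon receptor in 43.8%, and Il27ra, which pairs with Il6st for IL-27, in 39.9%. The partners of Il2rg and Il2rb for other cytokines were rare: Il15ra was positive in 8.43% of cells, Il9r in 5.62% and Il4ra in 3.37%. Among signalling genes below the receptors, Jak1 was positive in 98.3% of cells, Stat3 in 86.5%, Stat5b in 24.2%, Stat5a in 19.7% and Jak3, the kinase that binds Il2rg, in 28.1%. Of the genes for the ligands, Il21 was positive in 21.9% of cells and Il2 in 3.93%.

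Chains of 1 receptor can be asked for in the same cell. Because Il2rg was positive in every cell, each of the 87 Il7r-positive, 39 Il2rb-positive and 53 Il21r-positive cells also held Il2rg at the cut of 1. At a linear value of 10, Il7r and Il2rg were together in 50 of 178 cells, against 47.7 cells from the product of their shares within runs. Il21r and Il2rg were together at that level in 28 cells against 24.8, above the product in 4 of 4 runs. All 3 chains of the high-affinity IL-2 receptor were positive in 9 cells, 5.06% (2.34% to 9.38%), against 7.97 cells from the products. Those 9 cells were 0 in Mar1, 2 in Mar17, 3 in Apr13 and 4 in Apr21. The exact interval of the 0 of 25 cells in Mar1 reaches 13.7%. Il6ra and Il6st were together in 11 cells, 6.18% (3.13% to 10.8%), against 11.1 from the products, and Il6st was positive in 20% of Il6ra-positive cells and 20.3% of the rest. At the cut of 1 the IL-6 chains were thus found together about as often as the product of their shares, within a wide counting interval. At a linear value of 10 they were together in 7 cells against 4.985, above the product in 3 of 4 runs. Il27ra and Il6st were together in 17 cells against 14.3.

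Il7r and Il2rb were found together less than the product of their shares in each run. Il2rb was positive in 16.1% of the 87 Il7r-positive cells and 27.5% of the 91 others. In Mar1 2 cells held both against 2.2 from the product, in Mar17 4 against 5.98, in Apr13 4 against 5.42 and in Apr21 4 against 5.21. The sum was 14 cells, 7.87% (4.37% to 12.8%), against 18.8 from the products, so the interval includes the product share of 10.7%. At a linear value of 10 the pair was in 4 cells against 8.9, below the product in 3 of 4 runs, and at any value above 0 it was in 72 cells against 71.8. At the cut of 1 the pairs of Il7r with Il2ra (17 cells against 17.74), Il6ra (26 against 26.7), Il21r (24 against 26) and Il6st (19 against 17.6) lay close to their products, above in some runs and below in others. At a linear value of 10 Il7r was with Il6ra in 13 cells against 10.1, above the product in 3 of 4 runs. At that level it was with Il2ra in 3 cells against 3.8, Il21r in 8 against 9.99 and Il6st in 8 against 9.03.

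**Figure D3:**
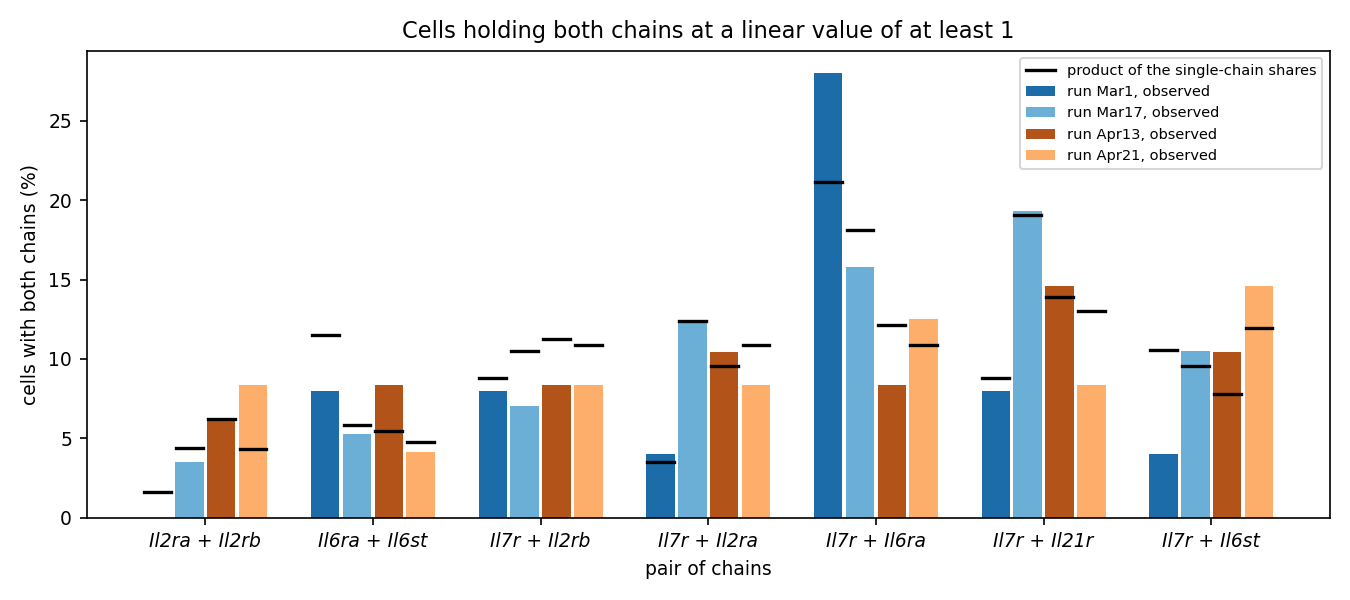
Bars show the share of cells (%) in which both chains of a pair are at linear values of 1 or more, by run, and black lines the product of the single-chain shares of that run. Il7r with Il2rb lies under its line in 4 of 4 runs, and the other pairs lie on either side of theirs.

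Counted per cell, 22 cells held 1 of the 7 chains, 54 held 2, 66 held 3, 25 held 4, 10 held 5 and 1 held 6. The commonest combinations were Il2rg alone (22 cells), Il7r with Il2rg (22), these with Il6ra (12), Il2rb with Il2rg (11), Il7r and Il2rg with Il21r (10) and with Il6st (9). Rank correlations between chains over the cells of a run were weak. The mean over runs went from -0.13 (Il2rb with Il6ra) to 0.22 (Il2ra with Il2rg, positive in 3 of 4 runs), and Il7r with Il2rb was -0.20, -0.11, -0.03 and -0.08 in Mar1, Mar17, Apr13 and Apr21. The labels do not say whether the cells of a run share a library batch, and cells differed in the number of genes detected. Il2ra in particular went with the number of genes detected per cell (rho 0.44, 0.34, 0.05 and 0.31 in the same order). Some of its relations below are therefore also given in cells matched on that number, and the others are given unmatched only.

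To relate each chain to memory and activation genes, cells positive for it were compared with the remaining cells of the same capture. Mean log2 values per capture and class were fitted with limma (10794 genes found in at least 10% of cells, capture as a block, Benjamini-Hochberg adjustment over all of them). Il2rg has no negative cells and was left out. A difference is positive minus negative cells, in log2 units, ± SE. The fit has 4 values per gene and 1 residual degree of freedom, and no gene passed an adjusted p of 0.05 in any of the 6 comparisons, so the differences below are measurements that did not pass the test.

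For Il7r (42 positive and 40 negative cells in March, 45 and 51 in April) limma called 0% of genes, and 5.52% (596) had an unadjusted p under 0.05. Several genes tied to resting and recirculating cells averaged higher in the positive cells and several activation genes lower, none past the test. Il2rb, the one other chain that differed in the same direction in all runs, averaged 0.80 in Il7r-positive and 1.52 in negative March cells, and 0.88 and 1.62 in April. The difference was -0.74 ± 0.30 (adjusted p = 0.876), lower in 4 of 4 runs, where 5.68% of all genes were lower and 7.37% higher in all 4 runs. The other 5 chains differed by -0.21 (Il21r) to 0.21 (Il6st), with Il2rg at 0.17, Il2ra at 0.16 and Il6ra at 0.14, and none kept a direction over the 4 runs.

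Il27ra, the ligand-binding chain for IL-27, was among the genes of smallest p. It averaged 3.71 in Il7r-positive and 1.33 in negative March cells, and 3.46 and 2.27 in April, a difference of 1.79 ± 0.42 that was higher in 4 of 4 runs (adjusted p = 0.876). It was positive in 49.4% of Il7r-positive cells and 30.8% of the others. Without run Mar1 it was the 1 gene called (2.19, adjusted p = 0.0333). Crlf3 (1.77 ± 0.37), the GTPase gene Gimap7 (1.51 ± 0.34) and the T cell receptor segment Trbj2-7 (1.92 ± 0.45) were the others of smallest p, all higher in 4 of 4 runs. Snrpd2, a spliceosome protein (-1.77 ± 0.38), and Ndufaf2, a respiratory complex I assembly factor (-0.82 ± 0.20), were lower in 4 of 4 runs.

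Of 21 central memory or naive genes, 3 were higher in all 4 runs (S1pr1, Dapl1 and Dgka) and 2 lower (Bcl2 and Nsg2). The median difference of the list was 0.19, against 0.02 over all genes tested. It was 0.01 in March and 0.36 in April. By run it was 0.41 in Mar1, -0.32 in Mar17, 0.34 in Apr13 and 0.21 in Apr21. S1pr1, the receptor that lets T cells leave lymph nodes, differed by 1.12 ± 0.36. Dgka, which restrains T cell receptor signalling, differed by 1.51 ± 0.46, and Dapl1, abundant in naive T cells, by 0.54 ± 0.29. Klf2, which drives S1pr1, differed by 0.72 ± 0.33 and was higher in 3 of 4 runs. Among 19 effector memory genes 2 were higher in all runs and 0 lower (median 0.07). Il18r1, an IL-18 receptor chain, differed by 1.08 ± 0.33 and the regulator Id2 by 1.07 ± 0.49. Lgals1 differed by -0.93 ± 0.53, but the captures went opposite ways, with 4.05 in positive and 3.89 in negative March cells and 4.33 and 6.35 in April.

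Of 24 activation genes, 5 were lower in all 4 runs (Tnfrsf9, Tnfrsf18, Nr4a3, Pdcd1 and Tfrc), 0 were higher, and 20 lay below 0 (median -0.22), where 5064 of all 10794 genes did. Tnfrsf18 (GITR) differed by -1.16 ± 0.39 and Tfrc, the transferrin receptor, by -0.49 ± 0.22. Icos, a costimulatory receptor, averaged 4.09 in Il7r-positive and 4.79 in negative March cells and 5.15 and 7.17 in April, -1.36 ± 0.48, lower in 3 of 4 runs. Its share of positive cells went the other way in April, at 91.1% of Il7r-positive and 82.4% of negative cells. In March it was 69% against 87.5%. Egr2, induced by antigen receptor signals, differed by -0.76 ± 0.33, from March (0.16 against 1.64) more than April (0.77 against 0.81). The follicular helper list (13 genes, median -0.11) had 8 genes below 0, with Pdcd1 and Il21 lower in all 4 runs. Btla of that list, an inhibitory receptor, was higher in all 4 runs, at 0.97 ± 0.36. The regulatory T list (11 genes, median -0.20) was divided, with a median of 0.07 in March and -0.51 in April. In it Ikzf2 differed by -0.99 ± 0.34, Itgae and Lrrc32 were higher in all 4 runs, and Tnfrsf18 was lower. The 19 proliferation genes had a median of 0.04. Of 28 signalling genes 3 were higher in all runs (Jak1, Stat5b and Pias1) and 3 lower (Jak3, Bcl2 and Shc1). Stat5b, a main transcription factor below the IL-7 receptor, differed by 1.02 ± 0.31, Jak1 by 0.87 ± 0.43 and the kinase Pim1 by 0.85 ± 0.41, the last from April alone (2.68 against 1 there, and 1.57 against 1.55 in March).

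These directions depended on the cut. With classes at any value above 0, which leaves 6 negative cells in March and 8 in April, 2 genes were called, Safb2 and Rpl36al. The median of the activation list was then 0.14 and that of the central memory or naive list -0.31. Against those cells at exactly 0, Safb2 was the 1 gene called. At a linear value of 10 no gene was called, and Il2rb differed by -0.92, Il27ra by 1.45, S1pr1 by 1.25 and Icos by -1.56. Summed B cell markers (4 of 8 in the table) had medians of 9.93 in positive and 5.88 in negative March cells and of 10.2 and 8.04 in April, with 1 of the 4 higher in all runs. Their part in the Il7r differences was not tested.

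For Il2ra (15 positive and 67 negative cells in March, of which only 2 positive in Mar1, and 21 and 75 in April) 0% of genes were called and 6.11% (660) had an unadjusted p under 0.05. All genes were higher in all 4 runs in 5.86% of cases and lower in 7.08%. Il2rg, several costimulatory and checkpoint receptors and most proliferation genes averaged higher in Il2ra-positive cells, none past the test. Il2rg averaged 7.77 in positive and 7.03 in negative March cells, and 10.3 and 7.96 in April. Its difference was 1.53 ± 0.50 (adjusted p = 0.811), higher in 4 of 4 runs. The other chains differed by -0.32 (Il7r) to 0.44 (Il21r), with Il2rb at 0.39, Il6st at 0.33 and Il6ra at 0.16, and varied in direction between runs.

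Of 24 activation genes 3 were higher in all runs (Icos, Ctla4 and Tigit) and 1 lower (Tfrc), with a median of 0.35, against 0.11 over all genes tested. Icos averaged 6.62 in positive and 3.94 in negative March cells and 7.64 and 5.83 in April, 2.24 ± 0.61. Tigit, an inhibitory receptor, differed by 1.74 ± 0.59, Ctla4, the inhibitory counterpart of CD28, by 1.64 ± 0.64, and the early activation marker Cd69 by 1.37 ± 0.62. All 11 regulatory T genes lay above 0 (median 0.63), where 6788 of all 10794 genes tested did, with 2 higher in all runs (Ctla4 and Itgae). The run medians of this list varied: 2.25 in Mar1, with 2 positive cells, 0.65 in Mar17, 0.50 in Apr13 and -0.002 in Apr21. Itgae, the integrin chain CD103, differed by 0.66 ± 0.27 but was positive in only 3 of 36 Il2ra-positive and 3 of 142 other cells. The actin-capping gene Capg differed by 1.44 ± 0.70, from March alone: it averaged 5.28 in positive and 2.31 in negative March cells, and 3.17 and 3.26 in April.

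The 19 proliferation genes had a median of 1.12, with 17 above 0 (against 6788 of the 10794 genes tested), 7 at an unadjusted p under 0.05 and 3 higher in all runs (Tuba1b, Cdca8 and H2afz). Stmn1, a microtubule regulator of dividing cells, was positive in 44.4% of Il2ra-positive and 19.7% of other cells. It averaged 3.20 in positive and 0.26 in negative March cells and 2.43 and 1.28 in April, 2.05 ± 0.53. Pcna, the replication clamp, differed by 1.73 ± 0.57, Rrm2, which makes deoxynucleotides, by 1.39 ± 0.46 (-0.06 without run Mar17), and the histone H2afz by 1.61 ± 0.54. Run Mar17 carried much of this: its own median was 1.75, against 0 in Mar1, 0.24 in Apr13 and 0.66 in Apr21, and without it the list median was 0.09.

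Genes of smallest p were Glrx (3.09 ± 0.62), which reduces oxidized proteins, Atp5g1 of the ATP synthase (3.01 ± 0.62), Zfc3h1 (2.34 ± 0.53) and the nucleolar Npm1 (1.96 ± 0.46), all higher in 4 of 4 runs, and Pacs1 (-0.88 ± 0.24), lower in 4 of 4. The central memory or naive list had a median of -0.02. It held Klf3 at 1.36 ± 0.55 and Ltb, a lymphotoxin chain, at -0.83 ± 0.45. Id3 differed by -1.15 ± 0.56, from April alone, with 1.79 in positive and 1.71 in negative March cells and 0.40 and 2.77 in April. The effector memory list had a median of 0.25, with the IL-18 receptor chain Il18rap at 0.47 ± 0.31. Of the other receptor chains Crlf2, which pairs with Il7r in the receptor for TSLP, differed by 0.87 ± 0.27, and of the signalling genes Pim2 by 0.84 ± 0.45. Without run Apr13, 8 genes were called, all higher: Atp5g1, Glrx, Atp5l, Gm10039, Snrpe, Mif, Ubl3 and Vdac3.

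Il2ra-positive cells also had more genes detected, with medians of 5715 against 5217 in March and 5048 against 4920 in April. In classes matched on the genes detected within runs, Il2rg differed by 1.28, Icos by 1.68, Stmn1 by 1.5 and the proliferation list by a median of 0.54, with no gene called. Quantile normalization moved the median of all genes from 0.11 to 0.00.

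For Il2rb (16 positive and 66 negative cells in March, 23 and 73 in April) 0% of genes were called and 7.49% (809) had an unadjusted p under 0.05. 5.57% of genes were higher and 7.42% lower in all 4 runs. Il7r and most genes linked to resting cells averaged lower in Il2rb-positive cells, and most follicular helper and activation genes higher, none past the test. Il7r averaged 1.31 in positive and 3.64 in negative March cells, and 2.47 and 3.51 in April. The difference was -1.69 ± 0.53 (adjusted p = 0.337), lower in 4 of 4 runs. The remaining chains lay between -0.62 (Il6st) and 0.06 (Il2ra).

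Mif, a secreted inflammatory mediator, had the smallest p (2.68 ± 0.59, adjusted p = 0.0542). It was higher in 3 of 4 runs and was called without run Mar1 (3.32, adjusted p = 0.0246) and at a cut of 10 (3.78, adjusted p = 0.0155). Mrpl37 of the mitochondrial ribosome (1.93 ± 0.46, called without Mar1), Naa10 (2.14 ± 0.52) and Selenok (2.35 ± 0.58, called without Mar17) were higher in 4 of 4 runs. Quantile normalization called Trbc2 alone. Arhgap15 (-2.04 ± 0.57) and Mettl23 (-1.61 ± 0.46) were lower in 4 of 4 runs.

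Of 21 central memory or naive genes 17 lay below 0 in Il2rb-positive cells (median -0.26), where 5026 of all 10794 genes did, with 5 lower in all runs (among them S1pr1, Satb1, Dapl1 and Dgka) and 2 higher (Foxo1 and Nsg2). Dgka differed by -1.57 ± 0.59, the chromatin organizer Satb1 by -1.52 ± 0.57 and Dapl1 by -0.96 ± 0.31. The 13 follicular helper genes had a median of 0.48, with Bcl6 and Maf higher in all runs and Slamf6 lower. Maf, a driver of Il21 and Il4, differed by 1.74 ± 0.58, Cd200 by 1.68 ± 0.58 (-0.26 without run Mar17), Icos by 1.57 ± 0.58 and the checkpoint receptor Pdcd1 by 1.17 ± 0.45. Of 24 activation genes 4 were higher in all runs (Tnfrsf18, Nr4a2, Myc and Ccnd2) and 2 lower (Nr4a3 and Egr2), median 0.40. Of 11 regulatory T genes 9 lay above 0 and 2 below, where 5768 of all 10794 genes lay above 0. The median of that list was 0.22, with 0.53 in March and -0.09 in April. Ikzf2 of the list differed by 1.47 ± 0.48, but Tnfrsf18 alone was higher in all 4 runs. The Mar17 medians were 1.17 for the activation and 1.25 for the follicular helper list, against -0.05 to 0.01 and -0.29 to 0.31 in the other 3 runs.

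**Figure D4:**
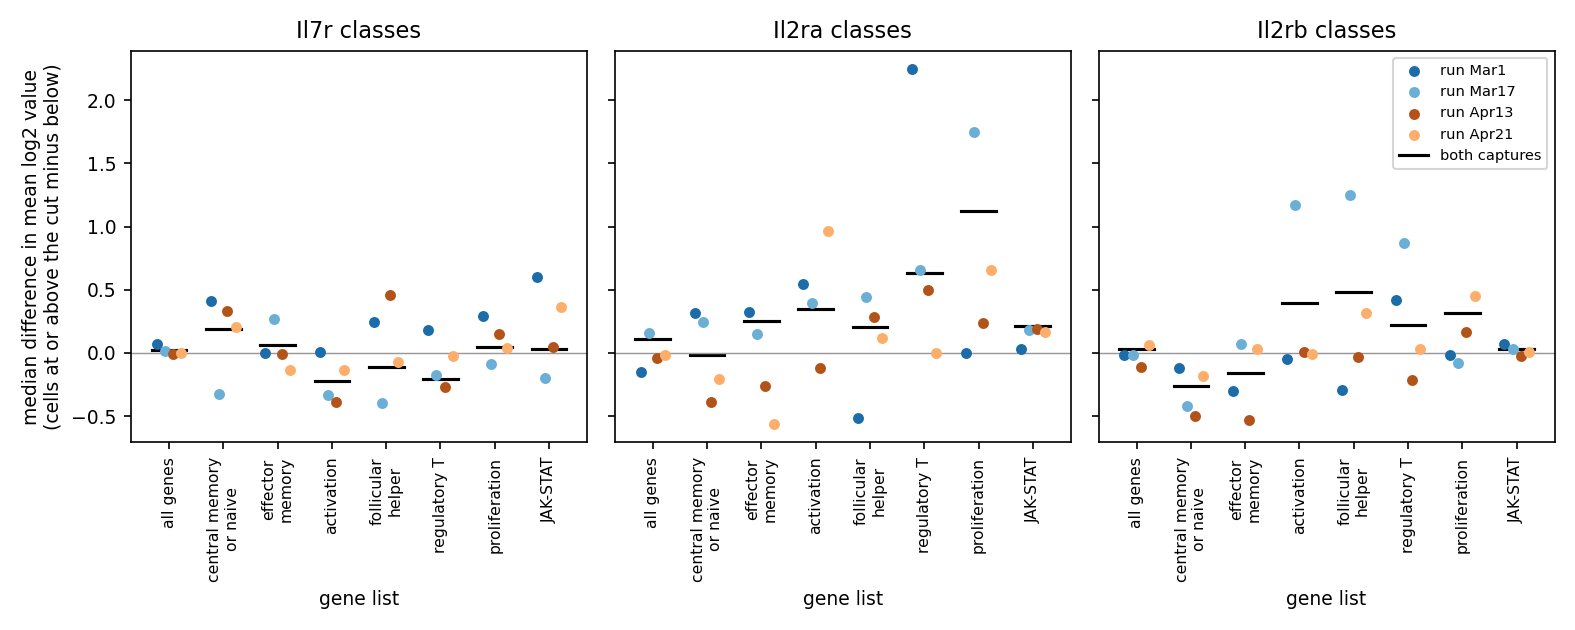
Median difference in mean log2 value between positive and negative cells over the genes of each list, for classes of Il7r, Il2ra and Il2rb; points are runs and black bars both captures. Proliferation genes reach a median of 1.12 in the Il2ra classes with Mar17 highest, activation genes lie at -0.22 in the Il7r classes and 0.40 in the Il2rb classes, and runs lie on both sides of 0 for most lists.

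**Figure D5:**
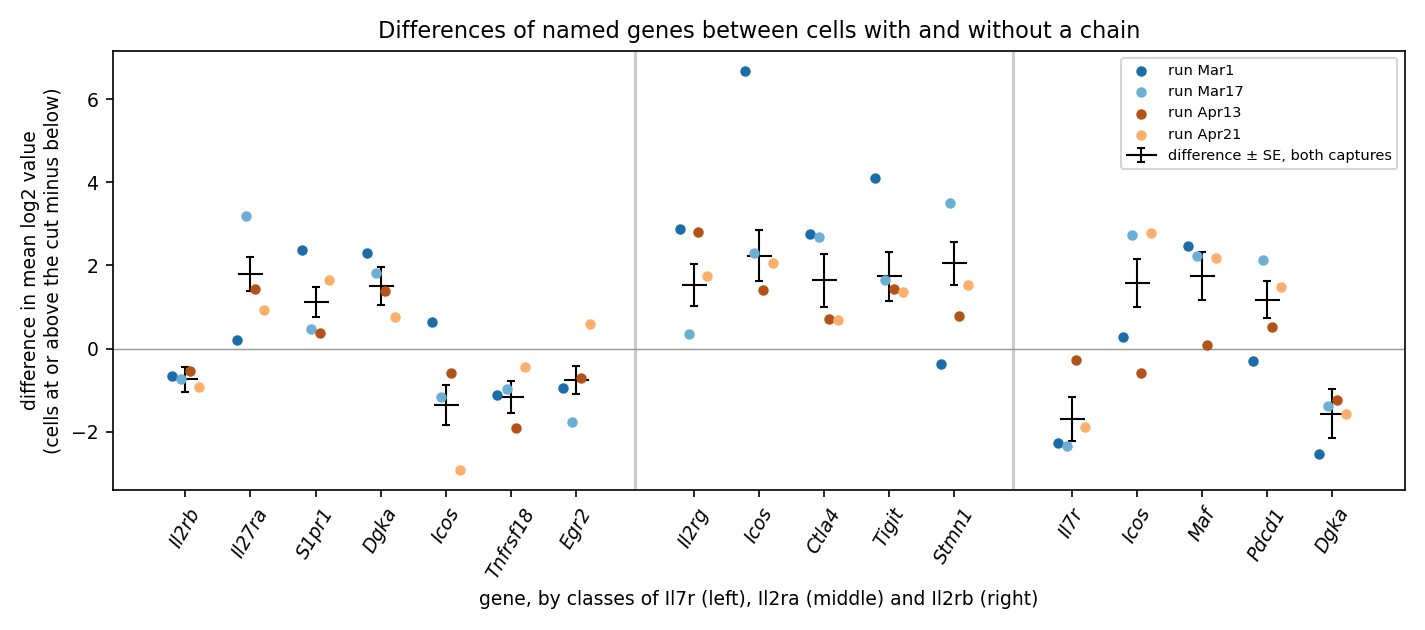
Difference in mean log2 value between positive and negative cells for named genes in the classes of Il7r, Il2ra and Il2rb; points are runs, black marks the difference over both captures with its SE. Il2rb in Il7r classes and Il7r in Il2rb classes lie below 0 in every run, Il2rg in Il2ra classes above 0 in every run, and Icos in Il7r classes above 0 in Mar1 alone.

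For Il6ra (31 positive and 51 negative cells in March, 24 and 72 in April) 0% of genes were called and 6.08% (656) had an unadjusted p under 0.05, with 5.26% higher and 7.3% lower in all 4 runs. Of the proliferation genes 18 of 19 lay below 0 in Il6ra-positive cells (median -0.41 against -0.02 over all genes, of which 5758 of 10794 lay below 0), with Mcm7, Birc5 and Cdk1 lower in all runs. The run medians of that list were 0.26 in Mar1, -0.42 in Mar17, -0.86 in Apr13 and -0.55 in Apr21. Top2a, which untangles replicated DNA, differed by -1.21 ± 0.40, and the cell cycle kinase Cdk1 by -0.50 ± 0.19. The central memory or naive list was divided, with 13 of 21 genes above 0 and 8 below (median 0.135, and -0.29 in Mar17). In it Ccr7, the lymph node homing receptor, differed by 1.09 ± 0.43 and Klf2 by 1.13 ± 0.41, both higher in 4 of 4 runs. The activation list was divided too, with 9 of 24 genes above 0 and 15 below (median -0.24, and 0.21 in Apr13). In it Batf (-1.13 ± 0.41) and Myc (-0.88 ± 0.29), factors of activated T cells, were lower in 4 of 4 runs. In March some shares of positive cells went against these means. Batf and Top2a were each positive in 48.4% of Il6ra-positive and 47.1% of other cells, and Ccr7 in 45.2% and 49%. The partner chain Il6st differed by 0.32 ± 0.35. All 6 other members lay between -0.50 (Il2rb) and 0.39 (Il21r). Of other receptors Il12rb2 differed by 0.65 ± 0.26 and Il27ra by -1.08 ± 0.45. The genes of smallest p included Ifi35 (1.58 ± 0.39), Sidt1 (1.22 ± 0.32), Rnps1 (-1.87 ± 0.39) and Psma1 (-2.11 ± 0.49).

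For Il6st (16 positive and 66 negative cells in March, 20 and 76 in April) 0% of genes were called and 7.76% (838) had an unadjusted p under 0.05, with 4.83% higher and 10.2% lower in all 4 runs. Cd200, an inhibitory ligand abundant on follicular helper cells, averaged 4.87 in positive and 3 in negative March cells and 7.46 and 3.26 in April. Its difference of 3.03 ± 0.61 was higher in 4 of 4 runs (adjusted p = 0.0987). It was positive in 86.1% of Il6st-positive cells and 55.6% of the others. Cd200 was called without run Mar17 (4.53, adjusted p = 0.00297). It was also called with no filter on low values, together with Ndufa1, Atp5mpl and Trbj1-4, and without the 3 cells of high mitochondrial share, together with Ndufa1 and Trbj1-4. Ndufa1 of complex I (-2.82 ± 0.61), Atp5mpl of the ATP synthase (-2.53 ± 0.54) and the receptor segment Trbj1-4 (-1.58 ± 0.34) were lower in 4 of 4 runs. Isy1 was higher by 1.64 ± 0.47. Of 13 follicular helper genes 9 lay above 0 and 4 below, where 4962 of all 10794 genes lay above 0. The median of that list was 0.26, with 0.05 in April and -0.22 in run Mar1. Cxcr5, Izumo1r and Cd200 of the list were higher in all runs. The central memory or naive list was divided, with 12 of 21 genes above 0 and 9 below (median -0.32 in March and 0.23 in April). Ccr7 (1.65 ± 0.51) and Tcf7 (1.6 ± 0.53) were higher in 4 of 4 runs, and Klf2 and Ly6c1 lower. Of 19 proliferation genes 17 lay below 0 (median -0.36), where 5832 of all 10794 genes did. Il6ra differed by 0.18 ± 0.43, and the other members lay between -0.78 (Il2rg) and 0.30 (Il21r).

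For Il21r (25 positive and 57 negative cells in March, 28 and 68 in April) 0% of genes were called and 4.99% (539) had an unadjusted p under 0.05, with 6.33% higher and 6.94% lower in all 4 runs. Il2rg differed by 1.04 ± 0.48 (higher in 3 of 4 runs, adjusted p = 0.94) and Il7r by -0.68 ± 0.45 (lower in 4 of 4). In March Il7r was still positive in 52% of Il21r-positive and 50.9% of other cells, and in April in 39.3% and 50%. The other chains lay between 0.04 (Il2rb) and 0.35 (Il2ra). The follicular helper list had a median of 0.32, which varied between runs: its run medians were 1.84 in Mar1, with 5 positive cells, -0.01 in Mar17, 0.26 in Apr13 and -0.04 in Apr21, and Tox2 alone was higher in all 4 runs. Icos differed by 1.08 ± 0.53 and Btla by 0.85 ± 0.42 in mean, but in March fewer Il21r-positive than other cells held them (68% against 82.5% for Icos and 32% against 42.1% for Btla). Cd44, the memory and homing receptor, differed by -0.96 ± 0.46. Of the 19 effector memory genes 12 lay above 0 and 7 below (median 0.12), where 6057 of all 10794 genes lay above 0. The replication helicase subunit Mcm6 differed by 1 ± 0.37. The proliferation list was divided, with 11 of 19 genes above 0 and 8 below (median 0.37 in March and -0.10 in April). In it Stmn1 and Mcm6 were higher in all 4 runs and H2afz was lower. Stip1 (1.93 ± 0.43) and Uqcrb (2.13 ± 0.53) were highest and Arpc3 (-1.51 ± 0.38) lowest among the genes of smallest p named here.

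Across genes, the pattern of each chain over single cells was compared with 6910 genes found in at least 25% of cells of both captures. For Il7r the closest genes by mean rank correlation over the 4 runs were Sugt1 (0.33), Lpcat1 (0.28), Cnppd1 (0.27) and Klhl24 (0.27), and the most opposed were Agpat3 (-0.33) and Snx6 (-0.26). Agpat3 was even over runs, at -0.34, -0.26, -0.36 and -0.35, whereas Sugt1 ran from 0.13 to 0.70. Closest to Il2ra was Atp5g1 (0.33), to Il2rb Nutf2 (0.31), to Il2rg Coa3 (0.32), to Il6ra Pcm1 (0.28), to Il6st Sp3 (0.30) and to Il21r E130308A19Rik (0.34). For Il7r 12.9% of genes kept 1 sign over the 4 runs. The March and April correlations of Il7r with the same genes were themselves nearly unrelated across genes (Pearson r 0.01).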

How the data were processed

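The authors deposited 1 table of single-cell expression per gene and cell on a log2 scale. How it was aligned, counted and normalized is not given in the sources used here. The build is mm10, per the submitters' processing notes. The unit was read from the values: undoing log2(value + 1) gives 892206 to 979888 per cell, and the lowest values fall with transcript length, so values were treated as TPM-like with a pseudocount of 1 and depth in reads is unknown. Columns were assigned to captures by name, with 0 left unmapped, and 12163 of 12432 gene IDs matched a symbol. Shares have exact 95% binomial intervals. For each chain, cells were split at a linear value of 1, mean log2 values per capture and class gave 4 libraries, and limma 3.58.1 (R 4.3.3, trend, capture as a block, Benjamini-Hochberg) tested 10794 genes found in at least 10% of cells. This leaves 1 residual degree of freedom. The limma fit draws each gene's variance toward a trend over all genes, so SEs and p-values rest on that pooled variance as well. Classes cut from the same cells are not separate samples. The p-values set class differences against their variation between captures, partly pooled over genes, and not against the spread between mice. Named genes are those of smallest p, up to 4 per direction where fewer than 4 passed, plus list genes of smallest p. Python 3.11.15, numpy 2.4.6, pandas 2.3.3, SciPy 1.17.1 and matplotlib 3.10.9 were used, and the scripts were tested on simulated data. Alternatives changed the cut, filter, pseudocount, scaling, blocks, depth matching and runs. The class cut at 10 was chosen after seeing the data. The members and lists were chosen with earlier results of these data known.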

Additional observations from a re-analysis of the deposited data

How the results depend on the processing

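Reads per cell are unknown, and each class comparison rests on 2 captures and 1 residual degree of freedom, so a difference that missed the threshold may still exist. Without the capture as a replicate block, 0 genes were called in each of the 6 class comparisons. No gene was called for Il6ra or Il21r under any alternative run. For Il7r 2 genes were called at any value above 0, 1 against cells at exactly 0 and 1 without run Mar1. For Il2ra 8 were called without run Apr13, and the cut at 10 was not run because too few cells remained. For Il2rb 1 was called after quantile normalization, 1 at a cut of 10, 2 without run Mar1 and 1 without run Mar17. For Il6st 4 were called with no filter on low values, 3 without cells over 50% mitochondrial and 1 without run Mar17. At any value above 0 and at 10, shares of cells were 92.1% and 33.1% for Il7r, 44.9% and 6.18% for Il2ra, 43.8% and 15.2% for Il2rb, 60.1% and 18% for Il6ra and 53.9% and 17.4% for Il21r. Il2rg was at 80.3% at 10, and Il6st at 53.4% above 0. The 3 IL-2 receptor chains shared 20.2% and 1.12% of cells, Il7r with Il2rb 40.5% and 2.25%, and the IL-6 receptor chains 30.9% above 0. At 10 the IL-6 receptor chains were together in 7 cells. Class differences that changed sign are given as log2 values, and their cause was not tested. With averaged linear values, differences were, in the Il7r classes Il2rg -0.0214, Il21r 0.0936, and in the Il2ra classes Il2rb -0.215, and in the Il2rb classes Il2ra -0.364, and in the Il6ra classes Il21r -0.426. Without run Apr21, differences were, in the Il7r classes Il21r 0.127, Il6ra -0.249, and in the Il2rb classes Il2ra -0.0726. With classes cut at any value above 0, differences were, in the Il7r classes Il6ra -0.082, Il6st -0.114, Dgka -0.154, Klf2 -0.408, Dapl1 -0.308, Il18r1 -0.0265, Id2 -0.38, Lgals1 1.11, Tnfrsf18 0.72, Ikzf2 0.201, and in the Il2ra classes Il6ra -0.474, Il7r 0.106, Cd69 -0.425, and in the Il6ra classes Il21r -0.114, and in the Il6st classes Il6ra -0.119. Against cells at exactly 0, differences were, in the Il7r classes Il6ra -0.0129, Klf2 -0.0118, Dapl1 -0.00672, Lgals1 0.525, Tnfrsf18 0.0635, and in the Il2ra classes Il6ra -0.0861. Without run Mar1, differences were, in the Il7r classes Il6ra -0.224. With a class cut of 10, differences were, in the Il7r classes Il2ra -0.0972, Il6st -0.0727. Without run Mar17, differences were, in the Il7r classes Il6st -0.197, and in the Il2ra classes Il21r -0.485, Il6ra -0.948, Il7r 0.377, Rrm2 -0.0552, and in the Il2rb classes Il2ra -0.216, Cd200 -0.26, and in the Il6ra classes Il6st -0.0344, and in the Il6st classes Il2rg 0.0833, Il21r -0.197. With classes matched on genes detected, differences were, in the Il2ra classes Il2rb -0.282, Il7r 0.544, and in the Il2rb classes Il2ra -0.342, and in the Il6st classes Il2rg 0.309. After quantile normalization, differences were, in the Il2ra classes Il6ra -0.0947. With the 4 runs as blocks, differences were, in the Il2ra classes Il6ra -0.25, and in the Il2rb classes Il2ra -0.00207. Without run Apr13, differences were, in the Il6ra classes Il2rb 0.0598, and in the Il6st classes Il6ra -0.151.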
